A study of Homo sapiens with 6 samples.

Results

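The nuclear genes for the subunits of the respiratory chain and of ATP synthase were followed in H9, an established human cutaneous T lymphoma line, after treatment with the compound PA4. The genes were chosen by symbol: NDUFA, NDUFB, NDUFC, NDUFS and NDUFV genes for complex I, SDHA to SDHD for complex II, UQCR genes for complex III, COX4 to COX8 genes for complex IV and ATP5 genes for complex V, leaving out hyphenated names and the NDUFAF assembly factors. These names matched 89 of the 26485 genes in the count matrix, with 39 in complex I, 4 in complex II, 10 in complex III, 17 in complex IV and 19 in complex V. The symbols are those of the deposited matrix, and 21 of them have since been replaced (ATP5A1 is now ATP5F1A, ATP5B is ATP5F1B). Polyadenylated RNA was sequenced from 3 control libraries, which received the DMSO vehicle, and 3 libraries of cells given 1 µM PA4 for 24 h. The series title calls PA4 a derivative of berbamine, and both groups are the same unmodified line grown in serum-supplemented RPMI medium. The comparison asks which transcripts of this line differ in level after PA4. The labels do not say whether the replicates came from separate cultures, and a p-value here reflects only how much these libraries vary, which may be technical.

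Complex I takes electrons from NADH, complex II takes them from succinate, and both pass them to ubiquinone. Complex III hands them on to cytochrome c and complex IV to oxygen, while ATP synthase, called complex V, uses the proton gradient that complexes I, III and IV build. Most of their subunits are made from nuclear genes and imported, and the remainder come from mitochondrial DNA, except for complex II, which is wholly nuclear. Malignant T cells use both glycolysis and respiration. None of the 13 mitochondrially encoded subunit genes was found by symbol in the count matrix, and they were not analysed here.

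Library totals ran from 18282212 to 22875191 counts, and 12107 genes passed the filter on low counts, holding at least 99.9% of the counts of each library. Scaling factors (trimmed mean of M-values, TMM) lay within 0.329% of 1. Of 12 T cell marker genes, 10 were tested and none was called, and their summed level was 940 to 993 CPM (counts for every 1000000 of the TMM-scaled library total) in control and 928 to 971 CPM in PA4 libraries. CD2 and CD4 were close to absent, with at most 1 and 12 counts in a library. B cell markers summed to 39.5 to 44.8 CPM in control and 39.5 to 44.0 CPM in PA4 libraries, markers of myeloid cells summed to at most 0.746 CPM and those of fibroblasts to at most 1.23 CPM. Epithelial markers, mainly EPCAM, summed to 133 to 137 CPM in control and 141 to 142 CPM in PA4 libraries, and the part of that shift in any subunit gene was not tested.

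No respiratory chain gene was called in either direction. Of the 89 genes, 80 passed the filter, which is 38 of 39 for complex I, 4 of 4 for complex II, 10 of 10 for complex III, 11 of 17 for complex IV and 17 of 19 for complex V. By edgeR's quasi-likelihood test with Benjamini-Hochberg adjustment over all tested genes, 0 of the 80 had an adjusted p under 0.05, beside 0.231% of all tested genes (28 of 12107). The lowest adjusted p among the 80 was 0.946. At an unadjusted p under 0.05 the same test also gave 0 of the 80, where 5.29% of all tested genes lay. DESeq2 called none of them against 0.180% of the 17261 genes it gave an adjusted p, and none had an unadjusted p under 0.05. With limma-voom, which called 0.223% of genes, none was called and 1 subunit gene, NDUFS4, had an unadjusted p under 0.05. These values are shares of each library, so a change in cell number or in total RNA per cell cannot be told apart from no change.

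The estimates were narrow. The median log2 fold change, PA4 against control, was -0.0088 over the 80 genes, with 33 positive and 47 negative values. Over all tested genes the median was -0.0040, with 5761 positive and 6346 negative values. For 40 genes both ends of the 95% interval were nearer to no change than 1.1-fold in either direction, for 74 (92.5%) nearer than 1.2-fold, and for 79 nearer than 1.5-fold. Among the 8564 tested genes of mean 10 CPM or more, 34.5% had such an interval at 1.1-fold, 88.3% at 1.2-fold and 99.8% at 1.5-fold. The median level was 77.5 CPM over the 80 subunit genes and 54.6 CPM over the 8564. The exception among the 80 at 1.5-fold was UQCRBP1, a pseudogene of the complex III subunit gene UQCRB with 6 to 15 counts per library. Its log2 fold change of 0.18 had a standard error (SE) of 0.38. NDUFS4, NDUFB7, NDUFC2, ATP5S and ATP5E were the other genes whose interval passed 1.2-fold.

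**Figure D1:**
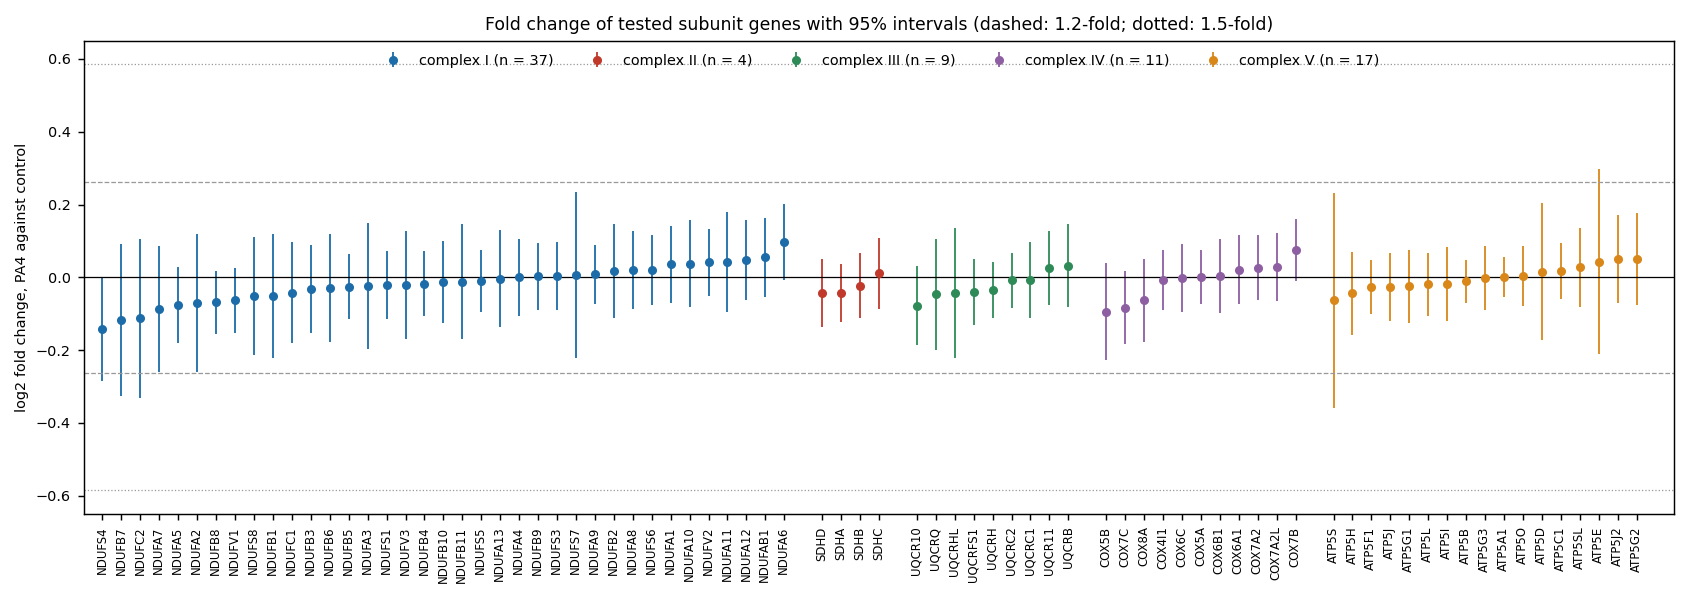
Log2 fold change of the tested subunit genes shown, PA4 against control, ordered by value within each complex; points are edgeR estimates and lines their 95% intervals, with UQCRBP1 left out for its width. All points lie between -0.142 (NDUFS4) and 0.098 (NDUFA6), and no interval reaches the dotted 1.5-fold lines.

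The groups did not overlap for 4 of the 80 genes (5.0%), beside 11.2% of all tested genes. NDUFA6 and COX7B were higher in every PA4 library than in any control library, and NDUFS4 and UQCRH were lower. NDUFA6 falls outside the rule for named genes and was chosen after its values were seen, as were the other genes described beyond that rule.

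Complex I is the largest of the 5, and its tested genes had a median log2 fold change of -0.012, with 15 positive and 23 negative. Among its genes for the NADH-binding and iron-sulfur core, NDUFV1 stood at -0.064, NDUFS8 at -0.053, NDUFS1 at -0.022, NDUFS3 at 0.0034, NDUFS7 at 0.0069 and NDUFV2 at 0.041. NDUFV1, which carries the flavin that accepts electrons from NADH, was measured at 141.4, 130.6 and 131.7 CPM in control and 129.1, 131.3 and 125.7 CPM in PA4 libraries. PA4 library 2 lay between control libraries 2 and 3, so the groups overlapped.

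NDUFS4, an accessory subunit of the NADH-binding arm whose loss causes Leigh syndrome, had the largest negative value among all the subunit genes. It was measured at 29.8, 28.6 and 31.3 CPM in control libraries 1, 2 and 3, and at 25.3, 27.8 and 28.3 CPM in PA4 libraries 1, 2 and 3. All 3 PA4 values lay below all 3 control values, with a gap of less than 1 CPM between the nearest. The log2 fold change was -0.14 (SE 0.068), with an unadjusted p of 0.0513 and an edgeR adjusted p of 0.946. NDUFS4 lies on chromosome 5 (53560639 to 53683338, GRCh38), and none of its exon bases belong to another annotated gene.

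NDUFA6, an accessory subunit of the LYR-motif family, had the largest positive value in complex I. Its levels were 48.8, 49.7 and 50.3 CPM in control and 53.2, 53.2 and 52.8 CPM in PA4 libraries. The 3 libraries of each group lay close together, and the groups were apart by a log2 fold change of 0.098 (SE 0.049, edgeR adjusted p = 0.961). NDUFAB1, the mitochondrial acyl carrier protein that binds LYR proteins, stood at 93.6 ± 4.63 (SD, n = 3) in control and 97.3 ± 5.64 CPM (SD, n = 3) in PA4 libraries.

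NDUFB7, an accessory subunit on the intermembrane face, was second to NDUFS4 in complex I by the size of its value, at -0.12 (SE 0.099, edgeR adjusted p = 0.993). It had 16.8, 14.9 and 12.7 CPM in control libraries 1, 2 and 3 and 13.8, 14.2 and 12.8 CPM in PA4 libraries. Control library 3 was the lowest and control library 1 the highest of all 6, so all PA4 values fell inside the control range. NDUFS5, NDUFB9 and NDUFA1, the complex I genes with the highest level per length, had log2 fold changes of -0.0092, 0.0023 and 0.035.

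Complex II is the enzyme succinate dehydrogenase. Its catalytic flavoprotein gene SDHA was measured at 186.5, 180.0 and 175.3 CPM in control and 178.8, 176.1 and 170.9 CPM in PA4 libraries. The groups overlapped, and the log2 fold change was -0.043 (SE 0.038, edgeR adjusted p = 0.993). SDHB, the iron-sulfur subunit, and SDHD, a membrane anchor, had values of -0.023 and -0.044, and the other anchor gene, SDHC, stood at 0.011. Their median was -0.033. The complexes were not ranked by median, since that of complex III includes the pseudogene UQCRBP1. The summed complex II level was 436.9, 440.3 and 431.9 CPM in control and 432.5, 425.0 and 424.2 CPM in PA4 libraries, overlapping through control library 3 and PA4 library 1.

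In complex III, 3 genes were positive and 7 negative, with a median of -0.022. The core protein genes UQCRC1 and UQCRC2 stood at -0.0076 and -0.0084, and UQCRFS1, the Rieske iron-sulfur protein, at -0.040. UQCRH, the acidic hinge protein of the complex, was measured at 154.8, 153.9 and 154.6 CPM in control and 151.9, 149.9 and 150.4 CPM in PA4 libraries. All PA4 values lay below all control values by a small step, with a log2 fold change of -0.035 (SE 0.036, edgeR adjusted p = 0.993). The small subunit gene UQCR10 had the largest negative value of the complex, at -0.078 (SE 0.051), and its groups overlapped, with 56.96, 58.6 and 54.0 CPM in control and 54.6, 53.7 and 52.3 CPM in PA4 libraries. UQCRQ, another small subunit, stood at -0.047 (SE 0.072).

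Complex IV, cytochrome c oxidase, had 6 positive and 5 negative values among its 11 tested genes, with a median of 0.0010. COX7B, a small subunit with a single membrane helix, was the highest of them. It had 102.4, 102.9 and 101.7 CPM in control and 109.3, 105.8 and 108.2 CPM in PA4 libraries, every PA4 value above every control value. Its log2 fold change was 0.075 (SE 0.040, edgeR adjusted p = 0.963). COX5B, the zinc-binding subunit, was the lowest at -0.095 (SE 0.063, edgeR adjusted p = 0.988). Its control libraries had 58.1, 60.2 and 50.1 CPM and its PA4 libraries 52.4, 51.5 and 54.0 CPM, so that control library 3 lay below all PA4 libraries and the other control libraries above them. COX7C, another single-helix subunit, stood at -0.083 (SE 0.047), with 96.4, 98.8 and 94.0 CPM in control and 89.7, 87.1 and 96.4 CPM in PA4 libraries. PA4 library 3 lay among the controls for this gene and the other PA4 libraries below them.

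COX4I1 and COX5A, whose subunits are made early in the assembly of complex IV, had log2 fold changes of -0.0078 (SE 0.039) and 0.0010 (SE 0.035). Their levels were 225 ± 11.3 and 217 ± 5.70 CPM (SD, n = 3) in control, and 224 ± 2.09 and 217 ± 2.81 CPM (SD, n = 3) in PA4 libraries.

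In complex V, 8 genes were positive and 9 negative around a median of -0.0024. ATP5A1 and ATP5B, the alpha and the catalytic beta subunit of the F1 head, were the most abundant subunit genes and held 29.3% of all counts of the 89 genes. ATP5A1 had 1608, 1633 and 1582 CPM in control and 1628, 1608 and 1589 CPM in PA4 libraries, and the groups overlapped throughout. ATP5B had 1128, 1155 and 1096 CPM in control and 1125, 1115 and 1113 CPM in PA4 libraries, all PA4 values inside the control range. The log2 fold changes were 0.00035 (SE 0.026) for ATP5A1 and -0.011 (SE 0.028) for ATP5B, and these 2 had the lowest SE of the subunit genes. ATP5C1, the rotating gamma subunit, stood at 0.018 (SE 0.036). Among the stalk genes ATP5F1, ATP5H, ATP5J and ATP5O the values ran from -0.044 to 0.0025. ATP5J2, a small membrane subunit, and ATP5G2, one of the genes for subunit c, had the largest values of complex V among genes of mean 10 CPM or more, at 0.049 and 0.051, and both overlapped between the groups.

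**Figure D2:**
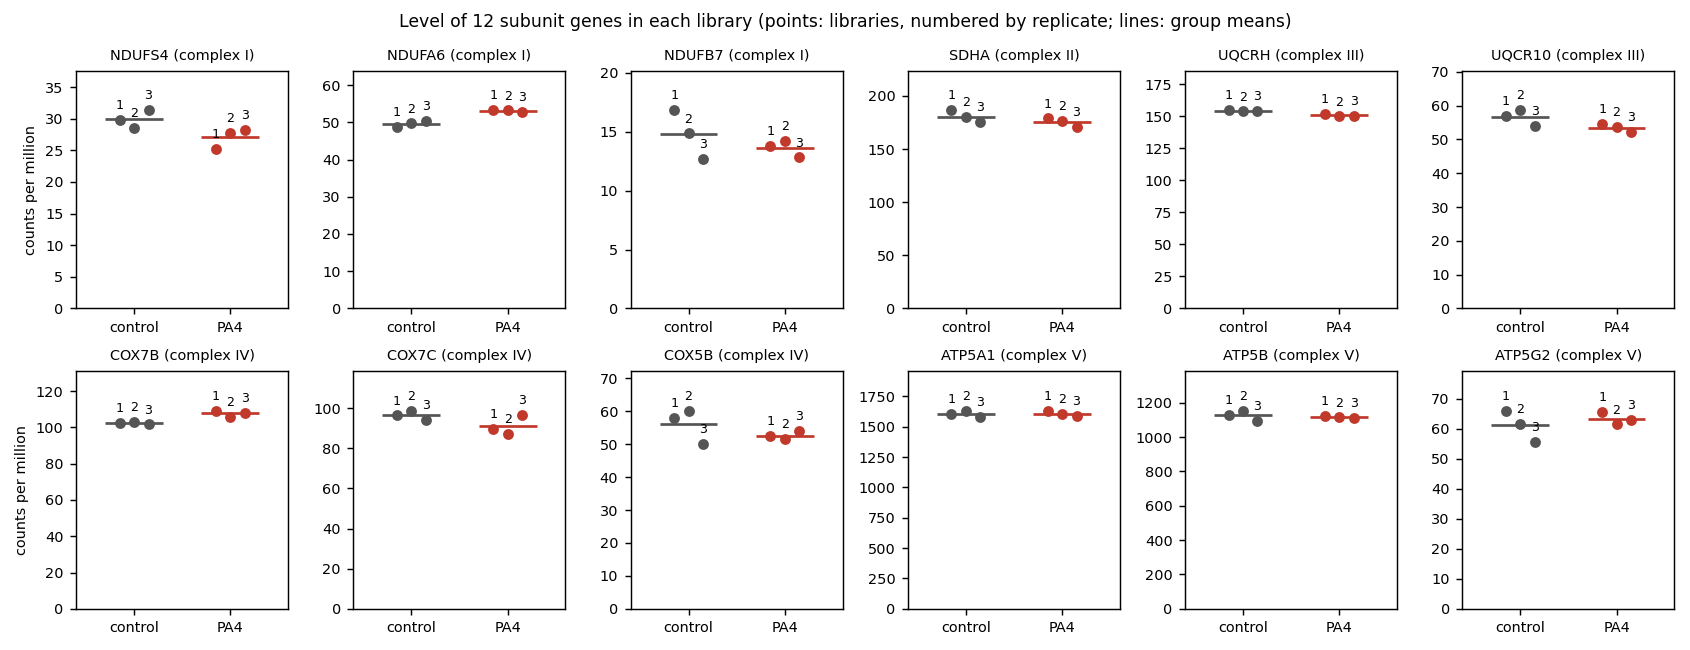
Level in CPM (y axis from 0) of 12 subunit genes in the 3 control and 3 PA4 libraries; points are libraries numbered by replicate and lines are group means. NDUFS4 and UQCRH lie lower and NDUFA6 and COX7B higher in all PA4 libraries, by small steps, and the other 8 genes overlap.

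Summed over complexes I, III, IV and V, the group means differed by less than the SD of at least 1 of the groups. Complex I summed to 2539 ± 30.2 CPM in control and 2522 ± 14.99 CPM in PA4 (SD, n = 3 each). Complex III summed to 926 ± 10.0 and 917 ± 13.3 CPM, complex IV to 1259 ± 31.9 and 1256 ± 5.21 CPM, and complex V to 4179 ± 67.1 and 4167 ± 32.0 CPM. The difference for complex II, 436 ± 4.2 against 427 ± 4.58 CPM, exceeded the SD of both groups, with the overlap given above. All 89 genes together summed to 9339 ± 142 CPM in control and 9290 ± 60.1 CPM in PA4 libraries.

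**Figure D3:**
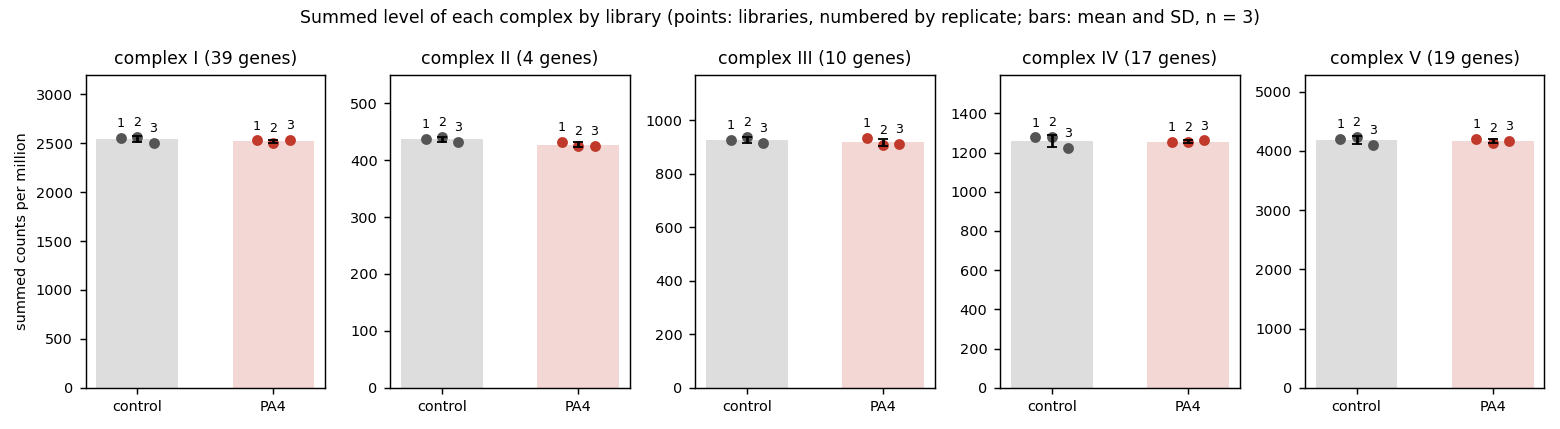
Summed CPM over the genes of each complex (y axes from 0, scaled per panel); points are libraries numbered by replicate, bars are means and whiskers SD of 3 libraries. Both groups stand at about the same height in every panel, from 427 CPM for complex II in PA4 to 4179 CPM for complex V in control.

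Levels of different genes were compared per length, as counts per kilobase of the deposited gene length scaled to a fixed total per library (TPM). The median over the 80 tested subunit genes was 188 TPM, against 23.6 TPM over all tested genes, and 76 of the 80 lay above that median. ATP5A1 (1732 TPM) and ATP5B (1592 TPM) led, followed by COX5A (739 TPM), NDUFS5 (736 TPM), COX4I1 (713 TPM), COX7B (603 TPM), COX7C (602 TPM) and UQCRH (518 TPM). COX5A and NDUFS5, neighbours in this order, did not differ beyond their replicate spread. At the other end stood NDUFC2 (17.3 TPM), NDUFA3 (12.4 TPM), ATP5S (7.70 TPM) and UQCRBP1 (1.77 TPM). The proteins of ATP5S and ATP5SL are related to assembly and are not subunits. The deposited length of NDUFA3, 3540 bases, is long for so small a subunit, which lowers its value per length. Deposited lengths were also long for NDUFA5 (6506 bases), UQCRB (5223 bases), NDUFA6 (4736 bases) and ATP5G3 (3482 bases). Levels, shares and ratios per length therefore depend on the deposited lengths.

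Complex V held 44.8% of the summed CPM of the 89 genes, complex I 27.2%, complex IV 13.5%, complex III 9.89% and complex II 4.64% over all 6 libraries. Per length the shares were 32.8% for complex V and 32.2% for complex I, with 24.1% for complex IV, 8.09% for complex III and 2.86% for complex II.

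**Figure D4:**
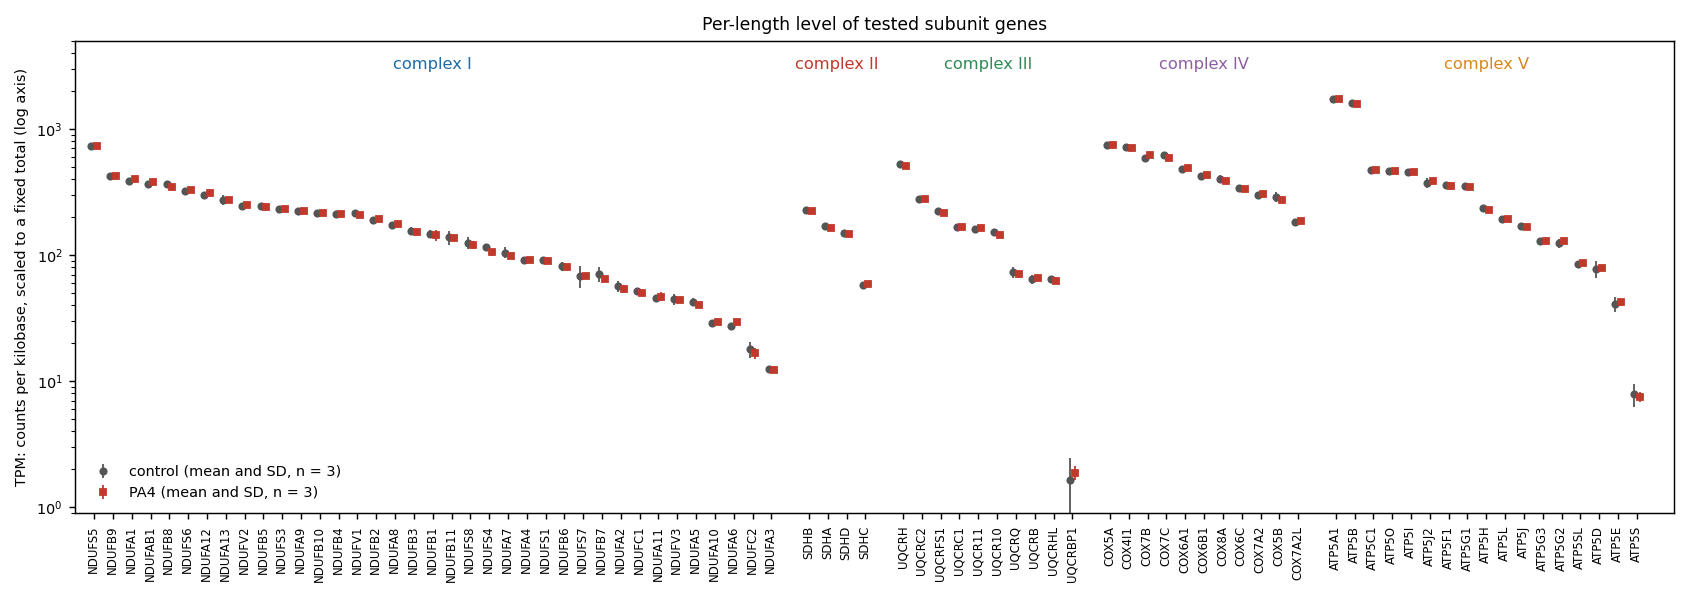
Level per length of the tested subunit genes shown (TPM, log axis), ordered within each complex; circles are control and squares PA4 means with SD of 3 libraries. The means run from 1.65 (UQCRBP1, control) to 1732 (ATP5A1), and the circle and square of most genes nearly coincide.

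Ratios between partner subunits were also close. Per length, ATP5A1 stood at 1.08 ± 0.011 times ATP5B in control and 1.09 ± 0.0078 times in PA4 libraries (SD, n = 3 each). The SDHA to SDHB ratio was 0.739 ± 0.027 and 0.729 ± 0.025, and the COX4I1 to COX5A ratio 0.968 ± 0.058 and 0.961 ± 0.0088. Subunit c of the ATP synthase rotor is made from ATP5G1, ATP5G2 and ATP5G3, which encode the same mature protein behind different import sequences. ATP5G1 gave 58.2 ± 0.682% of their summed level per length in control and 57.4 ± 0.519% in PA4 libraries. ATP5G2 gave 20.4 ± 0.767% and 21.2 ± 0.559%, and ATP5G3 gave 21.3 ± 0.327% and 21.3 ± 0.217%. The ranges of the groups overlapped for each of the 3 genes.

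Several subunits have a second gene that is used in particular tissues. The isoform genes COX4I2, COX6A2, COX7A1, COX7B2 and COX8C had 0 counts in all 6 libraries, which allows up to 0.164 CPM in the shallowest library for counting error alone, and COX6B2 had 4 counts in all. Their partners COX4I1, COX6A1, COX7A2, COX7B, COX8A and COX6B1 each had over 1300 counts in every library. COX6A2 and COX7A1 are the heart and skeletal muscle forms, and muscle marker genes summed to at most 1.71 CPM. NDUFA4L2, a gene induced by low oxygen, had 4 to 9 counts per library beside 1323 to 1560 for NDUFA4, whose protein current models place in complex IV. NDUFA4L2 made up 0.841 ± 0.286% of the summed level of the pair in control and 0.596 ± 0.216% in PA4 libraries (SD, n = 3 each). ATP5EP2 and ATP5L2, with at most 9 and 6 counts in a library, were the other genes that did not pass the filter.

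COX7A2L, which takes part in joining complexes III and IV, made up 38.07 ± 0.465% of its sum with COX7A2 in control and 38.08 ± 0.610% in PA4 libraries. UQCRHL, a near-identical intronless copy of UQCRH, made up 11.01 ± 0.261% of its sum with UQCRH in control and 10.9 ± 0.598% in PA4 libraries, and since reads may be divided between such copies, both are uncertain. The same holds for UQCRB and its pseudogene UQCRBP1, and for ATP5E (110 to 167 counts per library) and its pseudogene ATP5EP2 (2 to 9 counts).

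By the GENCODE annotation, 44 of the 80 tested genes share exon bases with another gene, and 17 share at least 20% of them. ATP5I shares 61.6% of its exon bases with MYL5, and ATP5J shares 23.1% with genes on the opposite strand, chiefly GABPA. Whether counting used strand is not given in the sources used here, so reads in those bases cannot be assigned with certainty.

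Subunit genes with GC-rich transcripts varied together between replicate libraries. In log2 CPM relative to each gene's mean over all 6 libraries, the 17 genes with at least 55% GC in the longest transcript had a median of 0.099 in control library 1, 0.0039 in control library 2 and -0.090 in control library 3. The same genes stood at 0.0052, 0.022 and -0.065 in PA4 libraries 1, 2 and 3. NDUFS7, an iron-sulfur core subunit, had 25.1, 19.2 and 17.3 CPM in control and 21.2, 21.4 and 19.1 CPM in PA4 libraries, with all PA4 values inside the control range. ATP5D, the delta subunit of the F1 head, had 34.7, 29.01 and 25.3 CPM in control and 30.4, 30.7 and 28.9 CPM in PA4 libraries. On the log2 scale, control library 1 exceeded control library 3 by 0.54 for NDUFS7, 0.46 for ATP5D, and 0.40 for both NDUFB7 and NDUFB11.

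Across the 80 genes, Spearman's rho between the log2 ratio of control library 1 to control library 3 and GC content was 0.518, beside 0.787 over 8485 genes of mean 10 CPM or more. It was 0.565 and 0.665 for control library 1 against 2, and 0.301 and 0.457 for control library 2 against 3. Among the PA4 libraries it was 0.498 and 0.407 for 1 against 3, 0.589 and 0.509 for 2 against 3, and of the opposite sign, -0.246 and -0.119, for 1 against 2. For the fitted PA4 against control difference, which compares 3 libraries with 3 and so is not matched to a pair of single libraries, it was -0.035 and -0.026. Genes of 1 pair of libraries share that pair's depth and preparation, so these are descriptions across genes. The bearing of this spread on single fold changes is given by the fits with GC offsets, in which no subunit gene was called either.

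**Figure D5:**
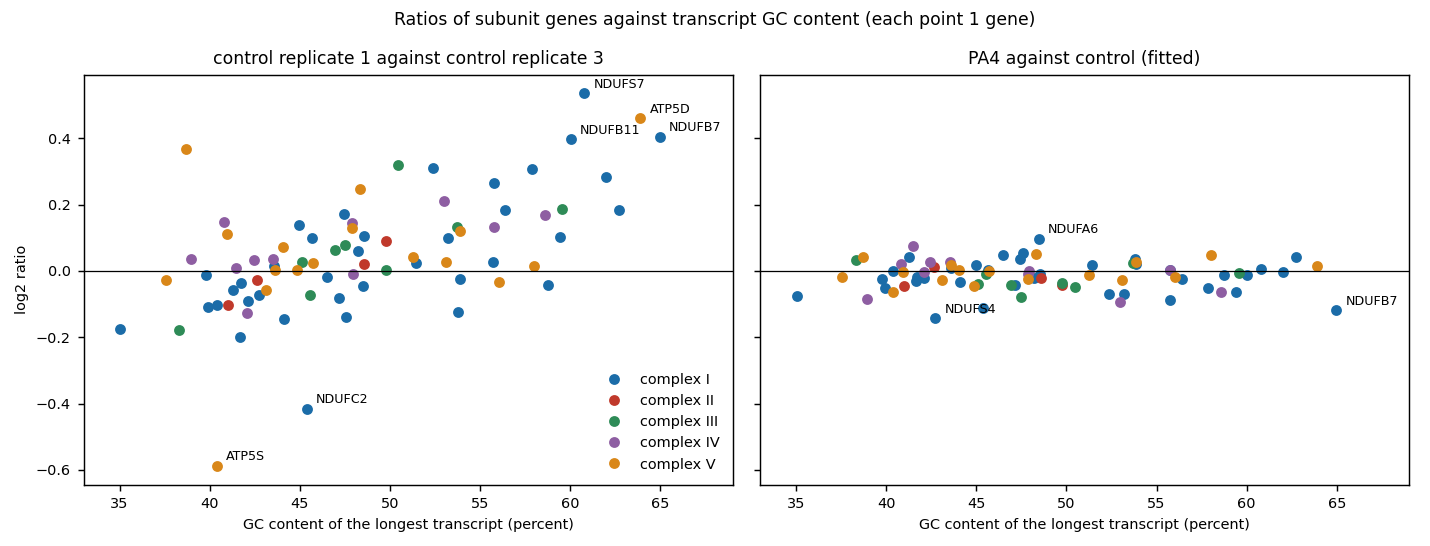
Log2 ratio of the tested subunit genes shown against the GC content of the longest transcript (percent), between 2 control libraries on the left and between PA4 and control on the right, with UQCRBP1 left out. Points on the left reach 0.54 for NDUFS7 at high GC content, and those on the right, from means of 3 libraries, lie within -0.142 to 0.098.

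The promoters of these genes are known for sites of NRF1, of the ETS factor GABP (whose DNA-binding subunit is GABPA) and of YY1. RefSeq promoter windows on GRCh38.p14, from 250 bases before to 50 after the start, were found for 65 of the 80 tested genes and searched on both strands. The letters GCGCANGC, for NRF1, were present in 26 of the 65 (40.0%), against 22.9% of 9515 tested genes with a window and 12.5% of 27305 windows in all. CCGGAAG, for ETS factors, was present in 19 (29.2%, against 20.9% and 10.7%), and AANATGGCG, for YY1, in 16 (24.6%, against 7.65% and 3.37%). CCAAT was present in 32.3%, against 37.6% of tested genes. By complex, the YY1 letters were in 10 of 33 windows for complex I, 1 of 3 for complex II, 3 of 7 for complex III, 1 of 10 for complex IV and 1 of 12 for complex V, with no test between them. Among the 3 complex II genes with a window, all 3 held the NRF1 letters. The ETS and YY1 letters do not overlap each other in the windows printed here.

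The 250 bases before the start are shown for those 3 complex II genes, as the only complex with the NRF1 letters in every window found, and for ATP5J, which held all 3 motifs, as did 3 of the 65 windows (4.62%, against 0.378% of tested genes). Capitals mark matches on either strand. SDHA lies at chr5:218070-218319 (plus strand), SDHB at chr1:17054033-17054282 (minus strand), SDHD at chr11:112086623-112086872 (plus strand) and ATP5J at chr21:25735055-25735304 (minus strand).
SDHA: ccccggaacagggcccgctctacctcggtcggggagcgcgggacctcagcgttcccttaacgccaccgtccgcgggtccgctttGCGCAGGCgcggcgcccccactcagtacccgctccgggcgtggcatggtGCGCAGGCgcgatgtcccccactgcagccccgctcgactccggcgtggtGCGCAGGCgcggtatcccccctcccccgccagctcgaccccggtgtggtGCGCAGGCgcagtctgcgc
SDHB: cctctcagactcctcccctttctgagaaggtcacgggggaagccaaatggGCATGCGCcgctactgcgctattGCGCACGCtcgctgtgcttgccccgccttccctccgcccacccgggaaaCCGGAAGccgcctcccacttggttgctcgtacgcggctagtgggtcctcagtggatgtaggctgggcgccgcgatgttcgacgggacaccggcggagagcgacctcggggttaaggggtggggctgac
SDHD: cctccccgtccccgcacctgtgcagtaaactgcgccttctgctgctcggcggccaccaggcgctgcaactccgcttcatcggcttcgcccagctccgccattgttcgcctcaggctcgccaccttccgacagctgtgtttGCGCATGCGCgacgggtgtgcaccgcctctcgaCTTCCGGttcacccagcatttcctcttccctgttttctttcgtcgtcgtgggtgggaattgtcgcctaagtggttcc
ATP5J: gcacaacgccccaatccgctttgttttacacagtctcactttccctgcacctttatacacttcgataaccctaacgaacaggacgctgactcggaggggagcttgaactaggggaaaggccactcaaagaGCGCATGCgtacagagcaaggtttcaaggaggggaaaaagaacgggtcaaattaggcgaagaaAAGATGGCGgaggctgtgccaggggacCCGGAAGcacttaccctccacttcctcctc
SDHA holds the NRF1 letters 4 times, first bases at 166, 117, 68 and 19 bases before the start, an even spacing over repeated stretches. SDHB holds them 2 times with an ETS match, and SDHD has an NRF1 match on each strand in 1 overlapping run next to an ETS match. A match describes the letters and not a bound site, and the 4 genes had log2 fold changes of -0.043, -0.023, -0.044 and -0.027.

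The genes of the factors themselves were not called. NRF1 stood at 30.6 ± 0.477 CPM in control and 31.3 ± 2.91 CPM in PA4 libraries (SD, n = 3 each), GABPA at 90.1 ± 6.13 and 86.2 ± 3.64 CPM, and YY1 at 212 ± 3.33 and 213 ± 1.83 CPM. Among 14 listed regulators 12 were tested and 0 called. The coactivator PPARGC1B had 47.1 ± 2.25 CPM in control and 50.6 ± 2.91 CPM in PA4 libraries, and its relative PPARGC1A was near 0 in both. Without control library 1, 1 regulator was called higher, HCFC1, a coregulator of cell growth genes, with a log2 fold change of 0.15 (edgeR adjusted p = 0.0289) against 0.071 (adjusted p = 0.990) with all libraries. In that setting 0.605% of all tested genes were called (74 of 12233), against 0.231% with all libraries.

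Genes that assemble or surround the chain were likewise not called in either direction, 0 of 219 tested genes outside the subunit set. Of all tested genes 0.231% were called (28 of 12107), so 0 of 219, or of any shorter list, is near that share. At an unadjusted p under 0.05, edgeR had 5 of them higher and 3 lower (3.65%), beside 5.29% of all tested genes. The lists gave 0 called of 17 tested assembly factors of complex I, 13 of complexes II and III and 26 of complex IV. The list headed complex V gave 0 called of 6 tested genes. It includes ATP5S and ATP5SL (now DMAC2L and DMAC2), which are in the subunit set by symbol alone. An ATP5 symbol does not settle which complex such a protein serves. The other lists gave 0 of 17 genes of complex III and the electron carriers outside the symbols used, 18 of the citric acid cycle and 15 of mitochondrial DNA upkeep. They also gave 0 of 49 and 32 genes of the large and small mitochondrial ribosome subunits, and 0 of 17 mitochondrial chaperones and proteases.

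ATPAF2, a chaperone that holds the ATP synthase alpha subunit during assembly, had 14.4, 13.3 and 13.1 CPM in control and 15.4, 15.7 and 15.6 CPM in PA4 libraries. All PA4 values lay above the controls, with a log2 fold change of 0.19 (SE 0.079, edgeR adjusted p = 0.876). The groups did not overlap for 28 of the 219 genes (12.8%), beside 11.2% of all tested genes. C17orf89, the complex I assembly factor now named NDUFAF8, had 33.035, 31.7 and 30.6 CPM in control and 28.6, 29.04 and 28.4 CPM in PA4 libraries, all below the controls (-0.15, SE 0.061, edgeR adjusted p = 0.879). COX18, which inserts a mitochondrially encoded subunit into the membrane, stood at -0.17 (SE 0.080), and SUCLA2, a citric acid cycle enzyme subunit, at -0.11 (SE 0.048). ATF5, a transcription factor of the mitochondrial stress response, stood at 188 ± 7.61 CPM in control and 203 ± 6.92 CPM in PA4 libraries (SD, n = 3 each), with a log2 fold change of 0.11 (SE 0.040, edgeR adjusted p = 0.749). In the other lists, the gene of mean 10 CPM or more with the value farthest from 0 was C12orf73 (-0.087), COQ6 (0.15), GABPB2 (0.10), POLRMT (-0.11), MRPL40 (0.090) and AURKAIP1 (-0.14).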

How the data were processed

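Gene counts of 3 control and 3 PA4 libraries were used as the authors deposited them, raw and with 1 column per library, beside a gene length in bases. The submitters' processing notes name Trimmomatic 0.39, fastp 0.23.2, STAR 2.7.9a and featureCounts of Subread 1.6.4, with hg38. Their annotation, strand and multi-mapping settings were not given in those sources. Counts were fitted with edgeR 4.0.16 (glmQLFit and glmQLFTest, R 4.3.3) after filterByExpr and TMM scaling, two-sided, with Benjamini-Hochberg adjustment over 12107 genes and calls at an adjusted p under 0.05. The common coefficient of variation between replicates, from edgeR's common dispersion and so without counting error, was 3.92%. DESeq2 1.42.0, limma-voom (limma 3.58.1), other scalings, no filter, a replicate block, GC offsets and leaving out each library were alternatives. Transcript GC, gene positions and exon overlap came from GENCODE release 29.

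Subunit genes, gene lists and pathway lists were chosen with earlier results of these data known. Named per complex were the 3 genes highest per length, the 2 with the largest absolute log2 fold change at a mean of 10 CPM or more, paralog pairs and untested genes, and per list the gene with the largest absolute log2 fold change at that mean. Subunit genes described outside this rule, among them NDUFA6, NDUFV1, NDUFAB1, NDUFS7, NDUFB11, ATP5D and SDHC, and the regulators NRF1, GABPA, YY1, PPARGC1A, PPARGC1B and HCFC1, were chosen after their values were seen. With 3 libraries against 3, an exact permutation test of 1 gene cannot go below p = 0.1, so none was used. Proteins were not analysed here. Of complex I, 1 gene is not reported here by name or in the plots, and it stays in the counts and sums.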

Additional observations from a re-analysis of the deposited data

How the results depend on the processing

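In all 14 other settings (scaling, filter, tool, block, GC offsets and each library left out) 0 subunit genes were called by adjusted p, the lowest being 0.225 for NDUFA5 without control library 1, and the median over all tested genes moved by at most 0.0061. Unadjusted p under 0.05 was reached by 13 subunit genes in at least 1 of the 14 settings. The same count was not made over all tested genes, so the 13 cannot be set beside the shares per setting given below. The number higher was 2 with GC offsets and 2 with the block and GC offsets, and 0 to 1 with a library left out. The number lower was 1 with library size alone, 1 with limma-voom, 1 with the replicate block, 3 with GC offsets, 3 with the block and GC offsets, and 0 to 6 with a library left out. The 6 were seen without control library 3 (COX5B, COX7C, COX8A, NDUFB11, NDUFB7 and NDUFB8), and the lowest unadjusted p was 0.00452 for COX5B there (adjusted p = 0.265). The share of all tested genes at an unadjusted p under 0.05, in either direction, was 5.34% with library size alone and 5.26% with limma-voom. It was 7.10% with the replicate block, 10.5% with GC offsets and 11.2% with the block and GC offsets. With a library left out it was 3.60% to 9.96%, and 9.49% without control library 3. Of 420 values of the 30 tested named genes, 43 had the opposite sign.

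Over all genes, calls higher numbered 53 without the filter, 50 with the replicate block, 86 with GC offsets, 91 with both, and 16 to 50 with a library left out, against 26. Calls lower numbered 9, 9, 20 and 22 in the same order, and 1 to 24 with a library left out, against 2. Both highest counts came without control library 1, and the causes were not tested. The median of complex I ran from -0.019 without control library 3 to 0.013 without control library 1. Per length, the shares of complexes I to V were 32.2%, 2.86%, 8.09%, 24.1% and 32.8%, against 27.2%, 4.64%, 9.89%, 13.5% and 44.8% by CPM. Counting NDUFA4 with complex IV and CYC1 with complex III gave medians of 0.00025 and -0.018. Deviations of same-numbered libraries had correlations of 0.161, -0.0877 and 0.416 over 8564 genes, and 3 of 6 libraries correlated best with their own number. The labels do not say what a number stands for and 1 of the 3 correlations was negative, so the numbers were not taken to pair the libraries, and what same-numbered libraries share is not known.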

Other observations

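A few genes that serve the chain but do not carry the symbols used were looked at after their values were seen. CYC1, the cytochrome c1 of complex III, stood at 107 ± 11.1 CPM in control and 105 ± 4.47 CPM in PA4 libraries (SD, n = 3 each), and its log2 fold change was -0.018 (SE 0.060). The ATP synthase subunit genes USMG5 and C14orf2 stood at -0.023 and 0.010, and ATPIF1, the inhibitor of ATP synthase run in reverse, at 0.034. None was called by edgeR.

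MRPS10, a protein of the small mitochondrial ribosome subunit, had the lowest unadjusted p of the pathway genes. Its level was 92.3 ± 1.75 CPM in control and 101 ± 1.04 CPM in PA4 libraries (SD, n = 3 each), with a log2 fold change of 0.13 (SE 0.041, edgeR adjusted p = 0.517). With GC offsets its edgeR adjusted p was 0.0407, and that of ATF5 was 0.0267. With the replicate block and GC offsets these were 0.0439 and 0.0359. Of all tested genes, 0.876% were called with GC offsets and 0.933% with the block and GC offsets, against 0.231% in the main fit. COA7, an assembly factor of complex IV, stood at 69.7 ± 3.06 and 75.7 ± 0.339 CPM (log2 fold change 0.12, SE 0.047, edgeR adjusted p = 0.848), and the mitochondrial chaperone CLPX at -0.096 (SE 0.042, edgeR adjusted p = 0.920).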
